A study of Mus musculus with 6 samples.

Results

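The genes described here are 10 transcription factors of the naive pluripotency network, Pou5f1, Sox2, Nanog, Klf4, Klf2, Esrrb, Tfcp2l1, Zfp42, Prdm14 and Tbx3, chosen by name from the 21866 protein-coding genes of the GENCODE vM21 annotation. For each gene, all H3K4me3 and ASH2L peaks that overlapped the gene body or the 20 kb upstream of its 5′-most start site by at least 1 bp were collected. The windows held 25 H3K4me3 peaks and 1 ASH2L peak, and 9 of the 10 genes had a peak of either kind. The study profiled E14 cells, a mouse embryonic stem (ES) cell line kept with serum and LIF, by CUT&RUN, in which an antibody tethers a nuclease to chromatin and the released fragments are sequenced. There were 3 groups of 2 samples each: parental E14 cells (genotype WT) with anti-HA, HA-Ash2L E14 cells with anti-HA, and HA-Ash2L E14 cells with anti-H3K4me3. All groups received doxycycline for 48 h, which induces the HA-Ash2L transgene, labelled as a knock-in genotype. The labels give 1000000 cells for the HA antibody and 100000 for the H3K4me3 antibody, whereas the methods name the same, higher number for every experiment. The ASH2L list therefore reports an induced, tagged protein in cells that also have their own ASH2L. HA signal in parental cells is not analysed here.

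The H3K4me3 list held 59927 peaks called from 27328071 tags after removal of redundant tags, and the ASH2L list held 2464 peaks called from 25677963 tags. Of the tags, 45.7% fell in peaks for H3K4me3 and 0.398% for ASH2L, and tag numbers were compared only within a list. Each list was called on merged duplicates. It has 1 value per peak, no spread between samples could be computed, and all comparisons are descriptions without a test. Of 27 genes that mark other cell types, 15 also had a promoter H3K4me3 peak, so a promoter peak alone did not separate ES cell genes from genes of other cell types in these lists.

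Trimethylation of lysine 4 of histone H3 (H3K4me3) marks promoters. It is deposited by the MLL/SET1 methyltransferase complexes, in which ASH2L is a core subunit. In mouse ES cells, OCT4 (encoded by Pou5f1), SOX2 and NANOG form the centre of the pluripotency network, and KLF, ESRRB, TFCP2L1, PRDM14 and TBX3 proteins sustain the naive state that LIF supports. Promoters rich in CpG dinucleotides are the usual sites of H3K4me3.

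A promoter H3K4me3 peak was a peak that touched the 1000 bp before or the first 100 bp after the start site of any of the gene's protein-coding transcripts. Klf4, Klf2, Esrrb, Tfcp2l1, Zfp42 and Prdm14 had one, and Pou5f1, Sox2, Nanog and Tbx3 did not. That is 6 of 10 genes, beside 67.2% of all protein-coding genes. Of these peaks, 4 were 5000 bp wide or more (Klf4, Klf2, Tfcp2l1 and Prdm14), beside 8.24% of all protein-coding genes with so wide a promoter peak. Among genes with a promoter peak, that is 66.7% (4 of 6) beside 12.3% (1802 of 14700). The median promoter peak of the 6 genes was 5919.5 bp wide and held 988.5 tags, against 2944 bp and 470 tags over all 14700 protein-coding genes with a promoter peak. Tags per kb of peak were closer, with medians of 160 and 155. The broad peaks thus held more tags mostly by covering more sequence.

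**Figure D1:**
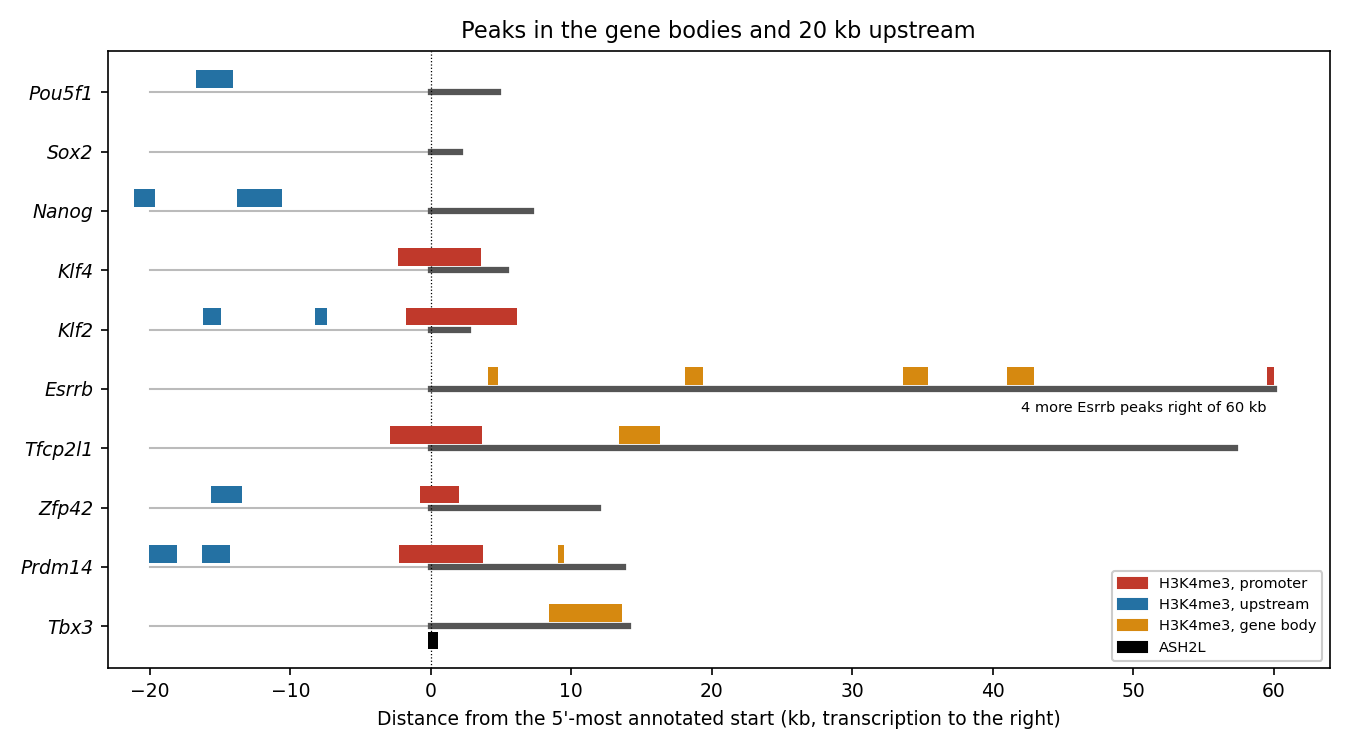
H3K4me3 peaks (coloured boxes above each line) and ASH2L peaks (black boxes below) by distance in kb from the 5′-most annotated start of each gene, with the gene body as a thick grey line and the upstream 20 kb as a thin one. Promoter boxes lie over the start of Klf4, Klf2, Tfcp2l1, Zfp42 and Prdm14, the black box lies at Tbx3, Sox2 has no box, and 4 further Esrrb peaks lie beyond the right edge.

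The promoter sequences of 5 genes are printed to show how far their CpG content ranges, from the genes with the most CpG to those with the least. They are taken from the RefSeq promoter table on GRCm38.p6, which held 8 of the 10 genes (Prdm14 and Tbx3 had no entry). Each run ends before the annotated transcript, reads 5′ to 3′ on the strand of the gene, and has its CpG dinucleotides in capitals. The runs lie at chr4:55532476-55532725 (minus strand), chr3:34649745-34649994 (plus), chr17:35505782-35506017 (plus), chr8:43307010-43307259 (minus) and chr6:122707239-122707488 (plus).
Klf4: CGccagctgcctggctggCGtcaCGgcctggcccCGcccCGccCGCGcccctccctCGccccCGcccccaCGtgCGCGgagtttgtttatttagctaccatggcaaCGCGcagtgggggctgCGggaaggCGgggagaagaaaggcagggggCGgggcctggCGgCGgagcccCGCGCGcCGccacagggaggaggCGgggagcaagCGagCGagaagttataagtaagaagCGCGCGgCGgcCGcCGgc
Sox2: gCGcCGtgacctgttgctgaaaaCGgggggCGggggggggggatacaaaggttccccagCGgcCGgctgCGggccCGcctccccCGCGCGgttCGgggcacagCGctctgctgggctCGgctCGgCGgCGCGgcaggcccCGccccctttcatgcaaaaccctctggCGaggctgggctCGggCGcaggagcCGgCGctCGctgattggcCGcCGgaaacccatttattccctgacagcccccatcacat
Pou5f1: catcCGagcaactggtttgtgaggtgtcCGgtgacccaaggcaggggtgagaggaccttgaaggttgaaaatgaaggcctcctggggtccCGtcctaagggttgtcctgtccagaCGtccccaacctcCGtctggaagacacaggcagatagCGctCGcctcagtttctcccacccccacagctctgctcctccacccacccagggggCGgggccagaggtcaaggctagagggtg
Zfp42: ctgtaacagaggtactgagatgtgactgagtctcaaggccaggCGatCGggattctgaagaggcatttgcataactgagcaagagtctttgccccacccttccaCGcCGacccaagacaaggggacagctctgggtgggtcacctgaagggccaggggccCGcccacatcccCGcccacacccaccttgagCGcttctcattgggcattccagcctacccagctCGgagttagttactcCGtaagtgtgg
Nanog: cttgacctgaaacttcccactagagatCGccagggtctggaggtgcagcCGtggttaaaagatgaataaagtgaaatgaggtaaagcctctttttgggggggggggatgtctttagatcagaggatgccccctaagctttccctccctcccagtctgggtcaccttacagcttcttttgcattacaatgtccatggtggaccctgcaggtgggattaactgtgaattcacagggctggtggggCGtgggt

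In the whole 300 bp window of the table, 250 bp before to 50 bp after the RefSeq start, Klf4 had 40 CpG, Klf2 had 32, Sox2 had 27, Tfcp2l1 had 21, and Pou5f1 (first start) and Zfp42 had 11 each. A second Pou5f1 start had 6. Esrrb had 7 at its first start and 7 at its internal start, and Nanog had 4. The median over the 16515 protein-coding genes with a sequence was 14, so the 8 genes lay on both sides of it. The share of genes with a promoter H3K4me3 peak was 17.5% at 0 to 4 CpG, 61.0% at 5 to 9, 90.8% at 10 to 14, and 94.8% at 20 to 29. Nanog belonged to the lowest class, in which most genes had no peak. Sox2, and Pou5f1 by its first start, belonged to classes in which most genes had one: of 9742 genes with 10 or more CpG, they were among the 540 (5.54%) without a promoter peak. The Sox2 window starts from a RefSeq start 410 bp from the GENCODE start at which the peak was judged, against 0 to 29 bp for the first starts of the other genes, so its CpG count describes sequence upstream of that start.

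**Figure D2:**
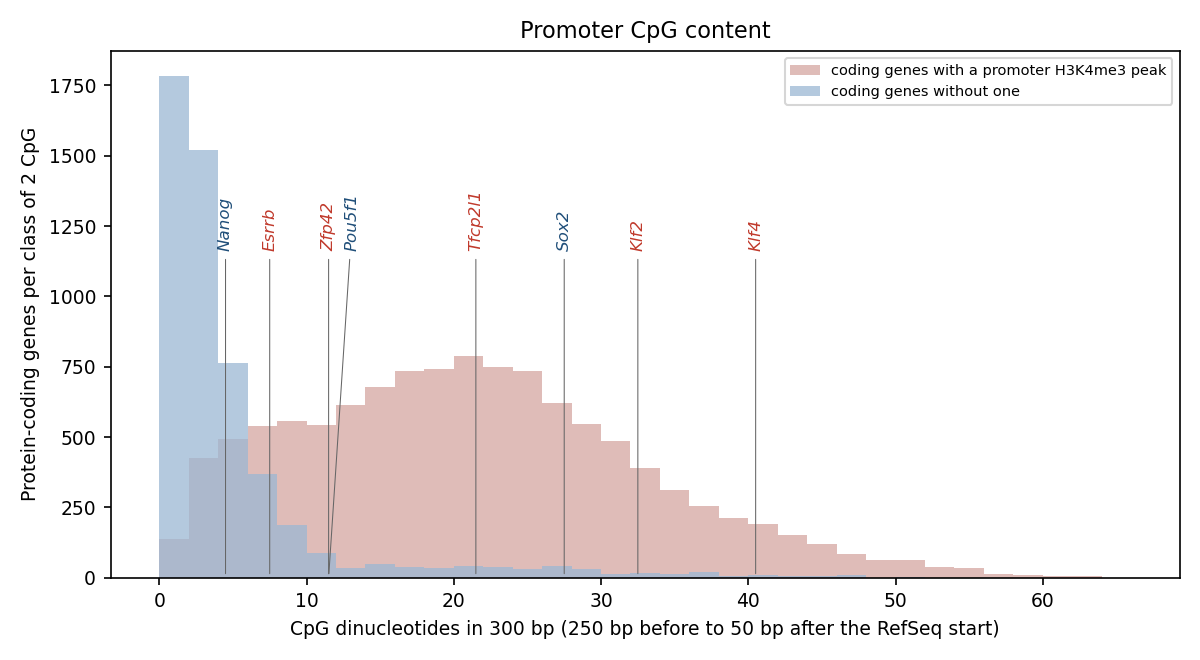
Histogram of CpG dinucleotides in the 300 bp promoter window (x axis) against the number of protein-coding genes (y axis), for genes with (red) and without (blue) a promoter H3K4me3 peak, with vertical lines at the 8 naive factors that have a sequence (name in red if the gene has a promoter peak, in blue if not; Esrrb and Pou5f1 at their first start). Nanog stands at 4 CpG among genes without a peak, and Sox2 at 27 CpG among genes that mostly have one.

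The core factors Pou5f1, Sox2 and Nanog had no H3K4me3 peak at their start sites in the list used here. The fold enrichment is the caller's ratio to the background near the peak, and the score is minus log10 of its p-value, times 10. Pou5f1 (ENSMUSG00000024406.16, chr17:35506018-35510772, plus strand) encodes the POU-domain factor OCT4. Its window held 1 peak, at chr17:35489319-35491952, 16699 to 14066 bp upstream of the start, with a width of 2634 bp, 281 tags, a fold enrichment of 4.45 and a score of 142.99. This peak ranked 14972 of 59927 by tags. The nearest peak on the other side began 7016 bp downstream of the start site, so that the gene lay in a stretch of 21081 bp without a peak.

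Sox2 (ENSMUSG00000074637.7, chr3:34650405-34652461, plus strand), the HMG-box partner of OCT4, had no peak of either list in its window. The nearest H3K4me3 peak was 25135 bp from its start, and the gene lay in a stretch of 53397 bp without one. Nanog (ENSMUSG00000012396.12, chr6:122707489-122714633, plus strand), a homeobox factor, had 2 upstream peaks. The peak at chr6:122693723-122696892, 13766 to 10597 bp upstream, was 3170 bp wide with 272 tags and a fold enrichment of 3.38, and the start site of another annotated gene, Gm10420, lay under it. The peak at chr6:122686383-122687849 was 1467 bp wide with 98 tags, a fold enrichment of 3.78 and a score of 84.42, and it reached past the upstream edge of the window. Both Nanog peaks were thus in the lower part of the list by fold enrichment, at the 2.38th and 5.63rd percentile. Of the 7166 protein-coding genes without a promoter peak, 77.2% lay at least as far from an H3K4me3 peak as Pou5f1, and their median distance was 27727 bp.

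The Krüppel-like zinc-finger factors, which act partly in place of one another in ES cells, had the promoter peaks with the most tags. Klf4 (ENSMUSG00000003032.8, chr4:55527143-55532466, minus strand) had 1 peak, at chr4:55528899-55534815, reaching 2349 bp before and 3567 bp past the start. It was 5917 bp wide with 1239 tags and a score of 446.04, and it ranked 166 of 59927 by tags. At 209 tags per kb it was also dense, at the 99.3rd percentile. Its fold enrichment of 2.77 was at the 0.210th percentile, among the lowest in the list.

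Klf2 (ENSMUSG00000055148.7, chr8:72319033-72321656, plus strand) had a promoter peak that took in the whole gene, at chr8:72317261-72325178, reaching 1772 bp before and 6145 bp past the start. It was 7918 bp wide, ranked 77 by width, and held 1214 tags, rank 203. Its summit lay 3955 bp downstream of the start, beyond the end of the gene. The fold enrichment was 2.61 and the score 61.54, at the 0.0751st and 7.93rd percentile, so that the same peak stood near the top of the list by tags and near the bottom by fold enrichment and score. Klf2 also had 2 narrow upstream peaks, of 1238 bp and 95 tags (16185 to 14948 bp upstream) and of 846 bp and 97 tags (8244 to 7399 bp upstream), with fold enrichments of 4.08 and 4.82.

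Esrrb (ENSMUSG00000021255.17, chr12:86361117-86521628, plus strand), an orphan nuclear receptor, had the most peaks, 9, in the longest gene. No peak overlapped its 5′-most start, where the nearest peak was 4069 bp away. The promoter peak, at chr12:86420676-86424084, lay 59559 to 62967 bp downstream of that start, at an internal start site of a coding transcript. It was 3409 bp wide with 430 tags, and its fold enrichment of 6.96 was the highest of the 6 promoter peaks. The other 8 peaks were intronic. A peak of 4473 bp with 448 tags (71280 to 75752 bp downstream) was wider than the promoter peak and had slightly more tags, at a lower fold enrichment of 4.83. The remaining 7 were 690 to 2873 bp wide with 34 to 155 tags. The 9 peaks covered 10.3% of the Esrrb window and held 1553 tags, the most of any of the 10 windows. The peak density, 4.99 per 100 kb, was close to the median of 4.24 over all protein-coding genes. The many peaks thus went with the length of the window.

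Tfcp2l1 (ENSMUSG00000026380.10, chr1:118627945-118685168, plus strand), a CP2-family factor downstream of LIF, had a promoter peak at chr1:118625070-118631616 that was 6547 bp wide with 985 tags, a fold enrichment of 3.82 and rank 798 by tags. A second peak, in intron 2 of 14, was 2926 bp wide with 340 tags and a fold enrichment of 5.04. Prdm14 (ENSMUSG00000042414.7, chr1:13113457-13127163, minus strand), a PR-domain protein that represses differentiation genes, had a promoter peak of nearly the same tags at chr1:13123481-13129402, with 5922 bp, 992 tags, a fold enrichment of 3.58 and rank 767. The summits of both promoter peaks lay close to the start, 401 bp downstream of it in Tfcp2l1 and 34 bp in Prdm14.

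Prdm14 had 3 further peaks. A peak in intron 6 of 7 was only 463 bp wide with 22 tags, at the 0.607th percentile by tags. Both upstream peaks, of 1969 bp with 191 tags and 1961 bp with 174 tags, lay in the neighbouring gene Ncoa2, a nuclear receptor coactivator, and the latter covered an Ncoa2 start site. They cannot be assigned to Prdm14 by position.

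Zfp42 (ENSMUSG00000051176.6, chr8:43295063-43306980, minus strand) encodes the zinc-finger protein REX1, a marker of the naive state. Its promoter peak at chr8:43304977-43307722 was the narrowest of the 6, 2746 bp, and held 570 tags (rank 5112) at a fold enrichment of 4.74. At 208 tags per kb its density was close to that of the Klf4 peak. An upstream peak at chr8:43320404-43322652, 15672 to 13424 bp before the start, had fewer tags, 221 over 2249 bp. Its fold enrichment of 9.57 and score of 571.65 were the highest of all 25 H3K4me3 peaks, above those of the gene's own promoter. No other annotated gene lay at its summit. The 300 bp around this summit stand out by fold enrichment and hold the KLF letters more than once. Both copies are closely followed by the letters ttgagcagg, and tgaatgtgaac also recurs across the window. The copies thus lie in repeated sequence and do not count as independent sites. The window is printed below (GRCm38.p6, chr8:43320747-43321046, plus strand, GGGTGTGG in capitals).
Zfp42 upstream summit: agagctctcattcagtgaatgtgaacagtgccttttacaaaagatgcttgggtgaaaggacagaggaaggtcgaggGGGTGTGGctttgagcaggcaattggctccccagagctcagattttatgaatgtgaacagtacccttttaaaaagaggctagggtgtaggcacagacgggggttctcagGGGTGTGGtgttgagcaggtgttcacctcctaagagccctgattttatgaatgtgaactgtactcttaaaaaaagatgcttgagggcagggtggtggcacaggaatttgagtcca

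Tbx3 (ENSMUSG00000018604.18, chr5:119670669-119684724, plus strand), a T-box factor, differed from the other 9 genes in that ASH2L and not H3K4me3 was listed at its coding start sites. The ASH2L peak lay at chr5:119670454-119671181, reaching 215 bp before and 512 bp past the first start. It was 728 bp wide with 30 tags, a fold enrichment of 5.11 and a score of 52.62. It ranked 1331 of 2464 by tags and was at the 15.8th percentile by score, just above the cutoff score of 50 (the lowest in the list was 50.01). The summit also lay within Tbx3os1, the antisense gene, so that the peak cannot be assigned to either gene alone. The part of the peak upstream of the first start (GRCm38.p6, chr5:119670454-119670668, plus strand, CpG in capitals) is printed since it is the ASH2L peak of these windows. It had 20 CpG in 215 bp.
Tbx3 ASH2L peak, upstream part: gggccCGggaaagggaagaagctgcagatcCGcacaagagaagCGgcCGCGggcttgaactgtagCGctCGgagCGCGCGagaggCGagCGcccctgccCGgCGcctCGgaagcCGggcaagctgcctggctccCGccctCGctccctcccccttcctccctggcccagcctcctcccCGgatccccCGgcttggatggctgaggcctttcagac

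ASH2L was listed at the promoter of 1 of the 10 genes, beside 7.41% of all protein-coding genes. Of the 1621 genes with a promoter ASH2L peak, 1571 (96.9%) also had a promoter H3K4me3 peak. Tbx3 was 1 of the 50 that did not, 0.229% of all protein-coding genes. For the other 9 genes, the nearest ASH2L peak was between 112944 bp (Nanog) and 1649492 bp (Zfp42) from the start. The H3K4me3 peak of Tbx3 lay 8446 to 13626 bp downstream of the start, toward the 3′ end of the gene in intron 6 of 6. It was 5181 bp wide with 812 tags, rank 1831, and had a fold enrichment of 2.85. It covered the start of a noncoding Tbx3 transcript, and no coding start. With the starts of all transcripts, noncoding included, Tbx3 was therefore counted too, and 7 of the 10 genes had a promoter H3K4me3 peak, so the absence of one at Tbx3 holds for its coding starts.

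Away from their own coding promoters, 8 of the 10 genes had at least 1 H3K4me3 peak in the window (all but Klf4 and Sox2), beside 66.5% of all protein-coding genes. Some of these peaks covered other starts, of Gm10420 (Nanog window), Ncoa2 (Prdm14 window) or a noncoding Tbx3 transcript. H3K4me3 peaks covered a median of 14.1% of the windows of the 10 genes, against 8.46% over all protein-coding genes. Prdm14 had the highest coverage, 30.5%, followed by Klf2 with 28.6% and Klf4 with 23.4%. The Prdm14 value includes the upstream peaks of 1969 and 1961 bp that lie in Ncoa2. Without them, Prdm14 would rank below Klf2 and Klf4. Sox2 had none.

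**Figure D3:**
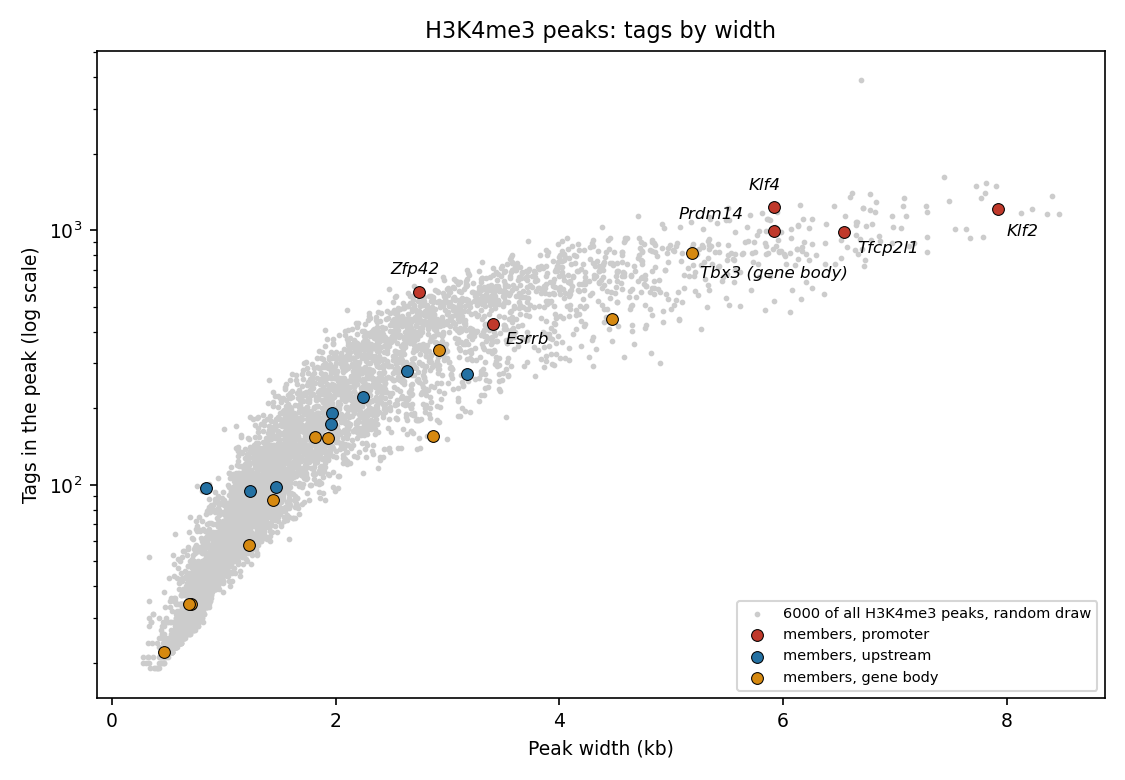
Tags per H3K4me3 peak (y axis, log scale) against peak width in kb (x axis) for 6000 randomly drawn peaks of the list (grey) and the 25 peaks of the 10 genes (promoter in red, upstream in blue, gene body in orange). The promoter peaks of Klf4, Klf2, Prdm14 and Tfcp2l1 and the Tbx3 gene-body peak lie at the wide end with 812 to 1239 tags.

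The rank of these genes depended on the measure. Among all 59927 peaks, the 6 promoter peaks had a median percentile of 98.7 by tags, beside 87.1 for the promoter peaks of all protein-coding genes. The median was 95.2 by tags among promoter peaks alone, 89.9 by tags per kb, 71.4 by score and 4.93 by fold enrichment. Across the list, fold enrichment fell with width above 1000 bp. The median fold enrichment was 6.46 for peaks up to 1000 bp, 7.22 for peaks of 1000 to 2000 bp, 5.58 at 3000 to 4000 bp, 4.20 at 5000 to 6000 bp and 3.56 at 7000 to 9000 bp, while the median number of tags rose from 38 in the narrowest class to 1124 in the widest. The share of peaks with a score under 100 was 62.8% up to 1000 bp, 4.66% at 3000 to 4000 bp and 42.2% at 7000 to 9000 bp. The peak caller had no control library and took its background from up to 10000 bp around each site in the same library, and the widest peak of the list was 8609 bp. Within their width classes, Tfcp2l1 (3.82 against a median of 3.86) was close to the median, Prdm14 (3.58 against 4.20), Klf4 (2.77 against 4.20), Klf2 (2.61 against 3.56) and Zfp42 (4.74 against 6.62) were lower, and Esrrb (6.96 against 5.58) was higher. Many of the narrowest and of the widest peaks thus had scores not far above the cutoff of 50. Of 6 other genes looked up, chosen after values were seen, 3 had no promoter peak: Gapdh, a glycolytic enzyme used by nearly all cells (nearest peak 4230 bp away), Rest (14355 bp) and Trp53 (16718 bp). The other 3 had one: Eef1a1 (4536 bp wide, 495 tags), Actb (5518 bp, 919 tags) and Myc (7438 bp, 1617 tags). Absence from the list does not show absence of the mark at Pou5f1, Sox2, Nanog or Tbx3. Whether the local background bears on these 4 promoters was not tested.

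**Figure D4:**
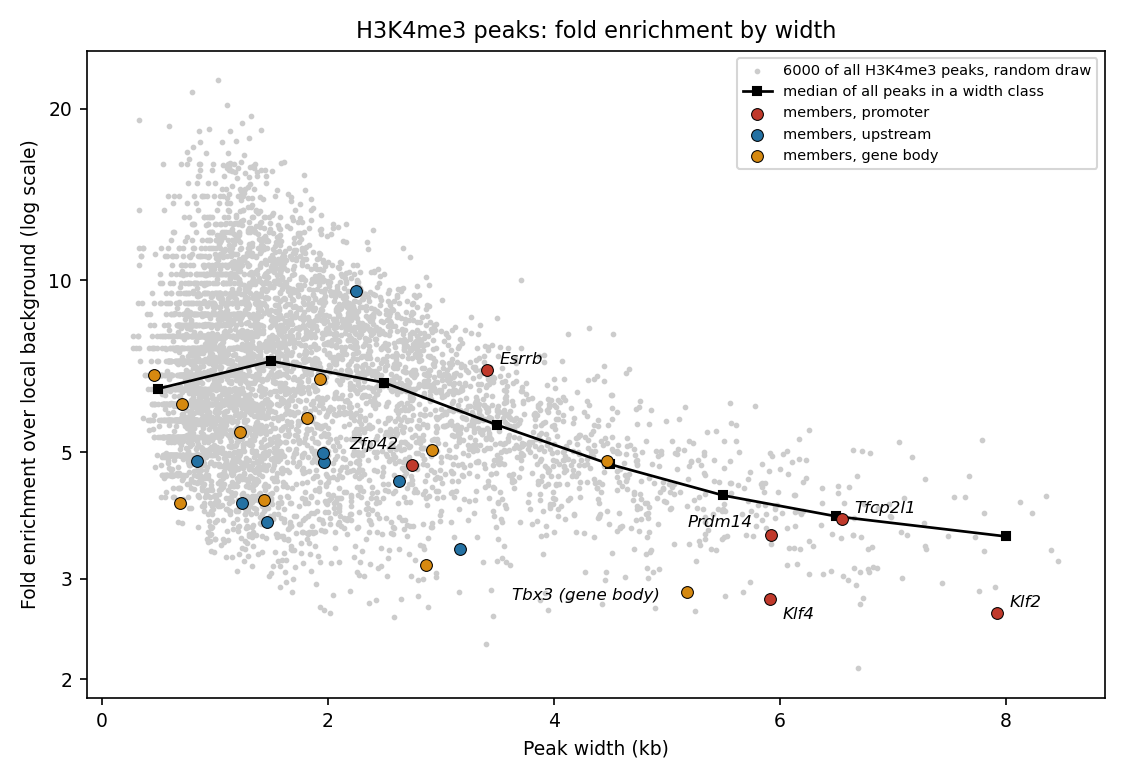
Fold enrichment over the local background (y axis, log scale) against width in kb (x axis) for 6000 randomly drawn H3K4me3 peaks (grey), the peaks of the 10 genes (colours by place) and the median of all peaks in each width class (black line, drawn at the middle of the class). The median is 6.46 in the narrowest class, 7.22 in the next and falls to 3.56 in the widest, and Klf2 (2.61), Klf4 (2.77) and the Tbx3 gene-body peak (2.85) lie below it.

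Short sequences bound by these factors were searched on both strands of the promoter windows (11 starts of the 8 genes) and of the 300 bp around each of the 25 summits. The octamer ATGCAAAT, read by OCT4, was in 1 promoter window, that of Zfp42, beside 1.67% of all promoters. The SOX letters CATTGT were in 4 promoter windows, beside 10.6% of all promoters, 2 of them the overlapping windows of Nanog, where they stand on the reverse strand as ACAATG. The KLF letters CCACACCC (GGGTGTGG on the reverse strand) were in the Zfp42 window alone, beside 3.71% of promoters. At the summits, the octamer was in 1 of 25 windows (2.42% of all H3K4me3 summits) and the SOX letters in 4 (12.4%). The KLF letters were also in 4, beside 5.24% of all H3K4me3 summits: the farther Nanog upstream peak, the Klf2 promoter peak and both Zfp42 peaks. The ESRRB letters TCAAGGTCA were in no promoter window (0.339% of all promoters) and in 1 of 25 summit windows, 4558 bp downstream of the first Esrrb start, beside 1.10% of all summits. A pair of CCAG or CTGG within 10 bp, as TFCP2L1 binds, was in 34.5% of promoters and 42.9% of summits, too common to single out a gene. The Zfp42 promoter window held both the octamer and the KLF letters. The window around the Zfp42 promoter summit overlaps it and holds the same copies, so these were counted in both searches.

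Of 24 further genes of the naive network, 14 had a promoter H3K4me3 peak and 6 of these were 5000 bp wide or more, with a median width of 4719 bp. Lefty1, a secreted NODAL antagonist, had the most tags (6488 bp, 1228 tags), followed by Klf5 (5597 bp, 1099 tags). Genes without a promoter peak included Nr5a2, Sall4, Utf1, Fgf4 and Nodal. Ncoa3, a coactivator that works with ESRRB, was the only gene of this list with an ASH2L promoter peak. Of 12 genes of the formative and primed states that follow the naive state, 10 had a promoter H3K4me3 peak, with a median width of 4574 bp. Of these peaks, 4 were 5000 bp wide or more. Zic2 had the most tags (7950 bp, 1515 tags), followed by Lef1 (4884 bp, 923 tags). Sox4 and Foxd3 had none, and no gene of this list had an ASH2L promoter peak. Of the 27 genes of other cell types, the 15 with a promoter peak had a median width of 2310 bp, and 1 reached 5000 bp. Among all protein-coding genes with a promoter peak, 12.3% had one of 5000 bp or more. Broad promoter peaks were thus listed at genes of the primed as well as of the naive state.

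**Figure D5:**
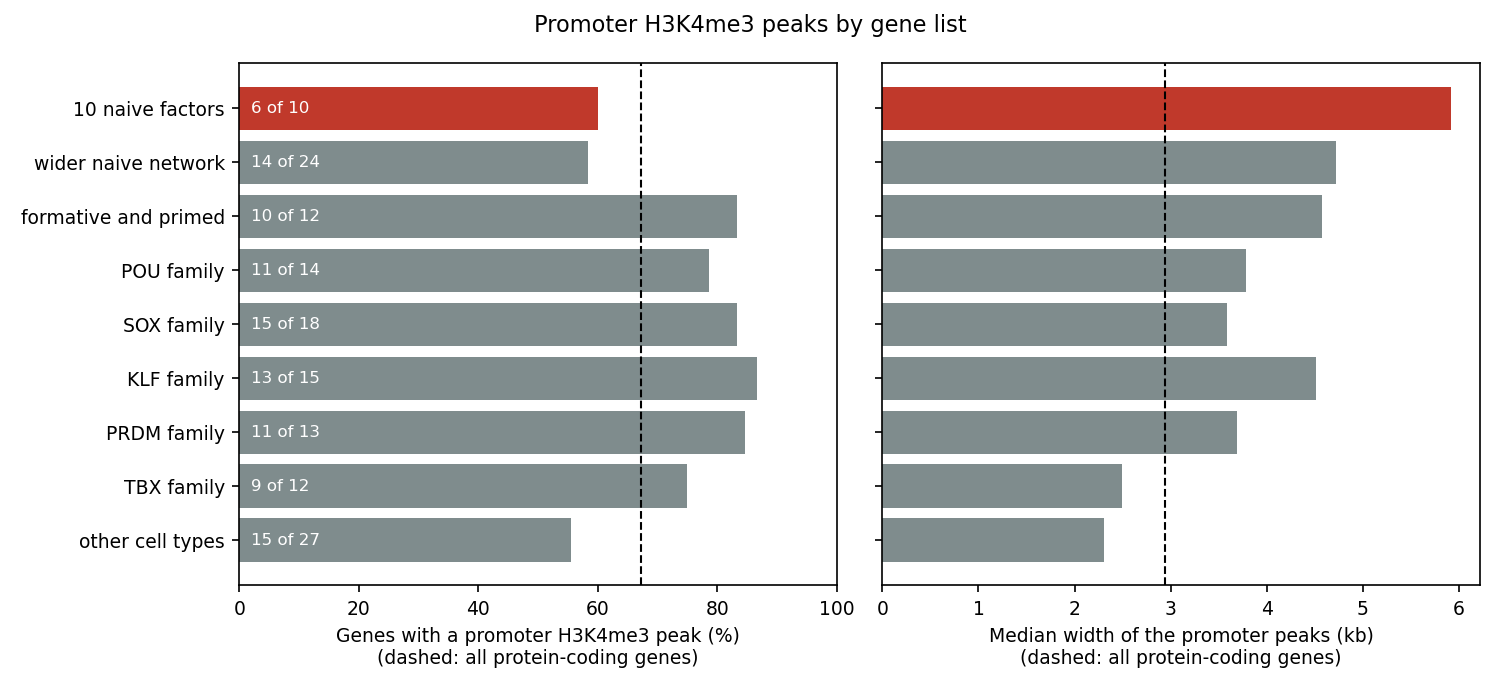
Share of genes with a promoter H3K4me3 peak (left, %, with counts) and median width of these peaks (right, kb) for the 10 naive factors (red) and other gene lists (grey), with all protein-coding genes as dashed lines at 67.2% and 2944 bp. The naive factors are near the dashed line on the left (6 of 10) and have the widest median on the right, 5919.5 bp, over 6 peaks.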

How the data were processed

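E14 cells were profiled by CUT&RUN with anti-HA and anti-H3K4me3. According to the submitters' processing notes and methods, reads were mapped to mm10 with Bowtie2, duplicates were merged and peaks were called with MACS (1.4.3 in the headers) at a p-value cutoff of 1e-05 without a control library. The deposited tag counts are whole numbers of tags per peak in the merged library, not normalized. The deposited fold enrichment is a ratio, the summit's tags over a background modelled by the authors' caller within that library. The deposited score is minus log10 of the p-value, times 10. Peak length and summit position are the authors' values in bp. The header tag sizes were 151 bp (ASH2L) and 142 bp (H3K4me3), and the redundant rates 0.03 and 0.31. These sizes exceed the limit for kept fragments in the study's methods, so whether tags of longer fragments entered the tag counts is not settled. Merging leaves no spread between duplicates, and depth enters through tags after filtering (25677963 and 27328071).

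Peaks were joined to GENCODE vM21 genes on GRCm38.p6 (mm10) with a minimum overlap of 1 bp, and ranked within their list by tags, fold enrichment, score and width. Percentiles are ranks counted from the lowest value, as a percentage of the number of peaks, with tied peaks given their mean rank. Promoter sequences came from RefSeq. Every peak of the 10 genes is described; of other lists, genes without a promoter peak, the 2 with the most tags and those with an ASH2L peak are named, except for items not reported here. The 10 genes and the lists were chosen with earlier results of these data known. Alternatives were other promoter and upstream windows, start sites, peak thresholds, summit overlap and ranking. Start sites of all transcripts, noncoding included, were added after seeing the data. The joins were tested on simulated data. Python 3.11.15 was used with pandas 2.3.3, numpy 2.4.6, pysam 0.24.0 and matplotlib 3.10.9.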

Additional observations from a re-analysis of the deposited data

How the results depend on the processing

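Of 106 alternative values for 11 results, 91 moved by no more than 1.5 times and 15 by more. Part of the 91 could hardly move by design, so their number does not measure stability. Promoter and start-site settings bear little on window counts and coverage, and upstream distance does not bear on promoter results. With peaks at or above the median fold enrichment of their list, 1 gene kept a promoter H3K4me3 peak (Esrrb) and 0 an ASH2L promoter peak, 3 genes had H3K4me3 peaks away from the promoter, 4 H3K4me3 peaks and 0 ASH2L peaks remained in the windows, and the median promoter width was 3409 bp, the median tags 430 and the median coverage 0. With a score of 100 or more, 0 ASH2L peaks remained, 0 of them at a promoter. When the summit had to lie inside the promoter, 4 genes kept a promoter H3K4me3 peak, with a median width of 4663 bp. The broad peaks of Klf2 and Tfcp2l1, with summits 3955 and 401 bp downstream of the start, then no longer counted. With RefSeq start sites, which have no entry for Tbx3, 0 genes had an ASH2L promoter peak and 1 an ASH2L peak away from it. With 10 kb upstream, 5 genes had H3K4me3 peaks away from the promoter, and with 50 kb the windows held 46 H3K4me3 peaks. By fold enrichment, the median percentile of the promoter peaks was 4.93. No paired analysis was possible because the lists merge the duplicates, and leaving out a replicate could not be run for the same reason. Values therefore have no replicate error, and the ASH2L peak at Tbx3 rests on 30 tags.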

Other observations

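Paralogues of 8 of the 10 genes (no family was listed for Nanog and Zfp42), set beside them by name, had promoter H3K4me3 peaks at a share above that of all protein-coding genes (67.2%) in each family with more than 2 genes, a description without a test. In the KLF family, 13 of 15 further genes had one, with the most tags at Klf13 (7699 bp, 1632 tags) and Klf10 (7822 bp, 1392 tags), and Klf16 and Klf9 had none. Klf12, Klf13 and Klf3 also had an ASH2L promoter peak, whereas Klf2 and Klf4 did not. In the SOX family, 15 of 18 had a promoter H3K4me3 peak, led by Sox11 (7172 bp, 1017 tags) and Sox1 (4911 bp, 848 tags), and Sox12, Sox21 and Sox4 had none, as Sox2. Sox12 had an ASH2L promoter peak without a promoter H3K4me3 peak, the same combination as Tbx3.

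In the POU family, 11 of 14 had a promoter H3K4me3 peak, with the most tags at Pou2f1 (6046 bp, 900 tags) and Pou4f2 (5413 bp, 840 tags). In the PRDM family it was 11 of 13, led by Prdm10 (6674 bp, 1222 tags), which also had an ASH2L promoter peak, and Prdm6 (5273 bp, 726 tags), with none at Prdm12 and Prdm13. In the TBX family it was 9 of 12, led by Tbx2 (5395 bp, 595 tags) and Tbx1 (4804 bp, 476 tags), with none at Tbx10, Tbx19 and Tbx6, and no ASH2L promoter peak. Esrra, Esrrg and Tfcp2 each had a promoter H3K4me3 peak, and Esrra an ASH2L promoter peak. Some of these genes, such as Klf5, Sox1 and Pou3f1, are also in other lists described above.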
